A study of Mus musculus with 44 samples.

Results

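The 10 genes described here are grouped as feedback genes of ERK signalling, and most of them encode brakes on it. They are the dual-specificity phosphatase genes Dusp1, Dusp2, Dusp4, Dusp5 and Dusp6, the Sprouty genes Spry1, Spry2 and Spry4, and Errfi1 and Phlda1. They were picked by symbol, 10 of the 23234 genes of the deposited table, with their early values against 0 h in view. Each comparison with 0 h is therefore given as a description, with no test, and the members are tested only in steps from 6 h on.

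Poly(A) RNA was sequenced from cultures of induced leukocyte stem cells (iLS), a mouse progenitor of several blood lineages. The cells derive from fetal liver of the C57BL/6J strain and carry Id3-ERT2, a fusion of the inhibitor protein Id3 to a receptor domain that responds to 4-hydroxytamoxifen (4-OHT); what drives its expression is not given in the sources used here. All cultures grew on TSt-4, a stromal feeder line, first with 4-OHT (40 nM) and the cytokines IL-7 (20 ng/mL), Flt-3L and SCF (both 10 ng/mL), and B cell differentiation was started by taking away 4-OHT and giving 5 ng/mL IL-7, with no other cytokine named. In all, 44 libraries were spread over 16 time points from that change on, 3 for each of 14 times (0, 0.5, 1, 2, 4, 6, 8, 10, 12, 24, 48, 72, 96 and 144 h) and a lone one for 120 h and for 168 h. Cells kept in the first medium over the same hours were not analysed here. Whether the 3 libraries of a time point came from separate cultures is not stated, so each p-value rests on the spread among these libraries alone.

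Growth factor receptors pass a signal through Ras and a chain of kinases to ERK, which enters the nucleus and switches on immediate-early genes. Among the genes that ERK signalling induces are its own inhibitors. Dual-specificity phosphatases remove the activating phosphates from ERK and related kinases, Sprouty proteins act between receptors and Ras, and the Errfi1 protein binds and blocks receptors of the EGF receptor family. In early B cells this pathway works downstream of cytokine receptors and of the pre-B cell receptor, and in fibroblast-like stromal cells it answers serum and growth factors.

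Promoter sequences of a few members are given first, as a description of their letters. RefSeq promoters (GRCm38.p6) were at hand for 7 of the 10 genes, with a pair of starts for Errfi1, and none was used for Dusp4, Spry4 or Phlda1. The 250 bases before the start were searched on both strands for TGACGTCA, the cyclic AMP response element that CREB factors bind, and for the CArG box that serum response factor binds. They were also searched for TGANTCA, an AP-1 site, and CCGGAA, an ETS core. No 2 of these motifs overlapped in the members. The 4 promoters below are shown because 3 hold a match and the Spry2 promoter, of a gene with an early pattern close to that of Dusp5, holds none. Capitals mark the matches.
Dusp1: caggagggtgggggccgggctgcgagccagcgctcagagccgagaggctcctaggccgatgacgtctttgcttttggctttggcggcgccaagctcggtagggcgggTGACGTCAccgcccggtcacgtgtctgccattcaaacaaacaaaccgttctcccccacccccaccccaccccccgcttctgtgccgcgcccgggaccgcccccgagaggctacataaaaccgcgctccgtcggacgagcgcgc
Errfi1 (start 2): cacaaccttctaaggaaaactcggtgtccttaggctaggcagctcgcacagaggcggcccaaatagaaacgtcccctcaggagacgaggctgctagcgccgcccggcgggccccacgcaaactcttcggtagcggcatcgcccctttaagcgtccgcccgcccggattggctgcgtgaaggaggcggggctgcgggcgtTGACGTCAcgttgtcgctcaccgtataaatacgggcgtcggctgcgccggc
Dusp5: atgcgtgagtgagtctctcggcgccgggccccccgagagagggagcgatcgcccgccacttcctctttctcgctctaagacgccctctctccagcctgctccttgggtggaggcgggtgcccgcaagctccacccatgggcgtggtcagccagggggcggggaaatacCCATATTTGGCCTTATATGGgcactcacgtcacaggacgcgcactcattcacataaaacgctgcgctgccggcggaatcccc
Spry2: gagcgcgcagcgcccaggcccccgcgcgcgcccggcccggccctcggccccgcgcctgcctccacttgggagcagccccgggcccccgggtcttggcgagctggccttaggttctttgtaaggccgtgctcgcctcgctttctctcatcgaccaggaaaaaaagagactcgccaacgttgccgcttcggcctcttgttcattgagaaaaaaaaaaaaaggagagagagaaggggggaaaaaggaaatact

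The first base of the cyclic AMP response element lay 143 bases before the start in Dusp1 and 51 bases before start 2 of Errfi1. In Dusp5 a pair of CArG boxes stood end to end, with first bases 82 and 72 bases before the start. Of the 32851 promoters of this length, 1.55% held a cyclic AMP response element, 1.47% a CArG box, 6.75% TGANTCA and 12.0% CCGGAA. The Dusp2, Dusp6 and Spry1 promoters and start 1 of Errfi1 held none of the 4 motifs. A match describes the letters only, no binding was measured, and a link to the patterns over time was not tested.

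Values are FPKM, fragments scaled to transcript length and to the mapped fragments of the library, as the authors deposited them. They summed to between 516025 and 701705 over the genes of a library, with 11520 to 12316 genes at 1 FPKM or more. No counts were used here, so depth in fragments is unknown and no interval from counting error is given. Relative depth, estimated from the smallest values, ran from 0.555 to 2.26 times that of 0 h replicate 1, which bears most on scarce genes. The cultures held feeder cells as well as blood cells, and their removal before RNA isolation is not stated. The summed FPKM of 22 stromal markers (collagens, fibronectin and others) was 1267 ± 725 at 0 h (SD, n = 3 here and below), and at 0.5, 6, 24, 72 and 144 h it was 6251 ± 949, 8124 ± 803, 7686 ± 726, 6295 ± 1930 and 2280 ± 568 in turn. That of 18 general blood-cell markers began at 2683 ± 369 and was 1369 ± 62.3, 889 ± 39.1, 664 ± 243, 1316 ± 377 and 2020 ± 268 at the same later times. Of the stromal markers, Lum was listed at 0 in 44 libraries and Dcn in 43, and no blood-cell marker was listed at 0 in any library. The progenitor markers Kit, Flt3, Cd34, Ly6a and Il7r were above 0 in every library. In such mixed RNA, fewer cells of a type and less RNA per cell cannot be told apart, and the part of the feeder share in the members' values was not tested.

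Dusp1, a nuclear phosphatase that acts on ERK and on the stress kinases JNK and p38, had a short early peak. Its FPKM was 7.29, 11.8 and 15.4 in the 3 libraries at 0 h. The 0.5 h libraries held 135, 163 and 153, and those of 1 h held 58.3, 81.9 and 104. By 2 h the libraries held 17.8, 33.0 and 35.4 FPKM. All 0.5 h libraries lay above all 1 h libraries, which in turn lay above all 2 h libraries. The change from 0 h was 3.65 ± 0.26 at 0.5 h on the log2(FPKM + 1) scale (SE from limma) and 2.73 ± 0.26 at 1 h. The mean stayed between 21.7 and 33.1 FPKM from 4 to 24 h, with no second peak of the early size.

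Dusp2, a nuclear phosphatase known mainly from blood cells, had another shape. It started high, at 51.0, 54.1 and 50.7 FPKM at 0 h, and stood at 67.9, 76.8 and 85.3 at 0.5 h. At 1 h the libraries held 26.3, 32.7 and 53.0 FPKM, and at 24 h they held 9.03, 6.28 and 1.47. Late in the culture the values were high again, with 26.0, 23.5 and 20.4 FPKM at 72 h and 39.6, 74.7 and 81.8 at 144 h. Its mean stayed between 5.59 and 11.7 FPKM from 4 to 24 h, and in each of those libraries it was lower than in every library of 0 h.

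Dusp4, a nuclear phosphatase of ERK and JNK, was scarce at the start and late to appear. The 0 h libraries held 0.219, 0 and 0.295 FPKM, 1 of them listed at 0. Values of 0.396, 1.59 and 1.70 at 0.5 h and 1.90, 2.93 and 1.63 at 1 h were followed by 6.56, 6.69 and 7.95 at 2 h. The 2 h libraries lay above every library of 0, 0.5 and 1 h. At 12 h it stood at 3.40, 3.80 and 5.64 FPKM, under the 2 h libraries and above those of 24 h, at 2.51, 1.23 and 1.56.

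Dusp5, a nuclear phosphatase selective for ERK, was already abundant, with 43.5, 29.4 and 41.0 FPKM at 0 h. It reached 109, 134 and 128 at 0.5 h. The 1 h libraries held 141, 131 and 153, and those of 2 h held 153, 151 and 193. At 4 h it was at 56.2, 46.1 and 65.9. By 6 h its libraries, at 43.2, 33.5 and 47.2 FPKM, overlapped those of 0 h, and at 24 h, at 22.7, 21.5 and 20.4, they lay under all of them. The values were thus high through 2 h and overlapped those of 0 h at 6 h.

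Dusp6, a cytoplasmic phosphatase selective for ERK, held a broad early plateau. Its FPKM was 2.25, 3.40 and 7.20 at 0 h. It was 34.0, 34.0 and 30.9 in the 0.5 h libraries, 30.0, 35.1 and 41.3 in those of 1 h, and 35.3, 37.6 and 25.9 in those of 2 h. The 3 early time points overlapped one another and none overlapped 0 h. From 4 to 72 h the mean lay between 11.7 and 18.3 FPKM, and every library was above all 3 of 0 h.

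Of the Sprouty genes, Spry2 gave the clearest pattern. It stood at 6.21, 5.46 and 8.87 FPKM at 0 h. The 1 h libraries held 29.6, 41.8 and 30.8 FPKM of it, those of 2 h held 39.2, 34.4 and 31.8, and it was back at 11.4, 7.61 and 5.15 at 24 h. Spry1 stayed low, with 1.49, 2.89 and 4.73 FPKM at 0 h and 6.17, 8.02 and 8.03 at 0.5 h. At 2 h Spry1 held 2.13, 2.60 and 1.93 FPKM, inside the 0 h range, and at 48 h it held 5.48, 6.73 and 7.54. Spry4 was scarce throughout. Its libraries held 0.333, 0.168 and 0.373 FPKM at 0 h and 1.54, 3.46 and 1.79 at 1 h. Single libraries of Spry4 were listed at 0 at 10, 72, 96 and 144 h.

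Errfi1, the receptor inhibitor, reached the highest level of the 10. Its FPKM was 5.19, 9.40 and 15.9 at 0 h, then 108, 195 and 132 at 0.5 h, then 376, 374 and 216 at 1 h. At 6 h it was still at 192, 150 and 112, and at 144 h at 31.6, 19.4 and 45.5. Every later library of Errfi1 lay above all 3 libraries of 0 h.

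Phlda1 encodes a protein with a pleckstrin homology-like domain, and its transcript is known to follow ERK activity. It stood at 0.836, 2.94 and 12.7 FPKM at 0 h and at 99.7, 130 and 116 in the 0.5 h libraries. Those of 1 h held 185, 169 and 164, and those of 2 h held 98.0, 99.5 and 79.3. At 144 h, with 7.17, 6.80 and 12.2 FPKM, its libraries overlapped those of 0 h. The 0 h libraries themselves spread widely, and replicate 3 was the highest.

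**Figure D1:**
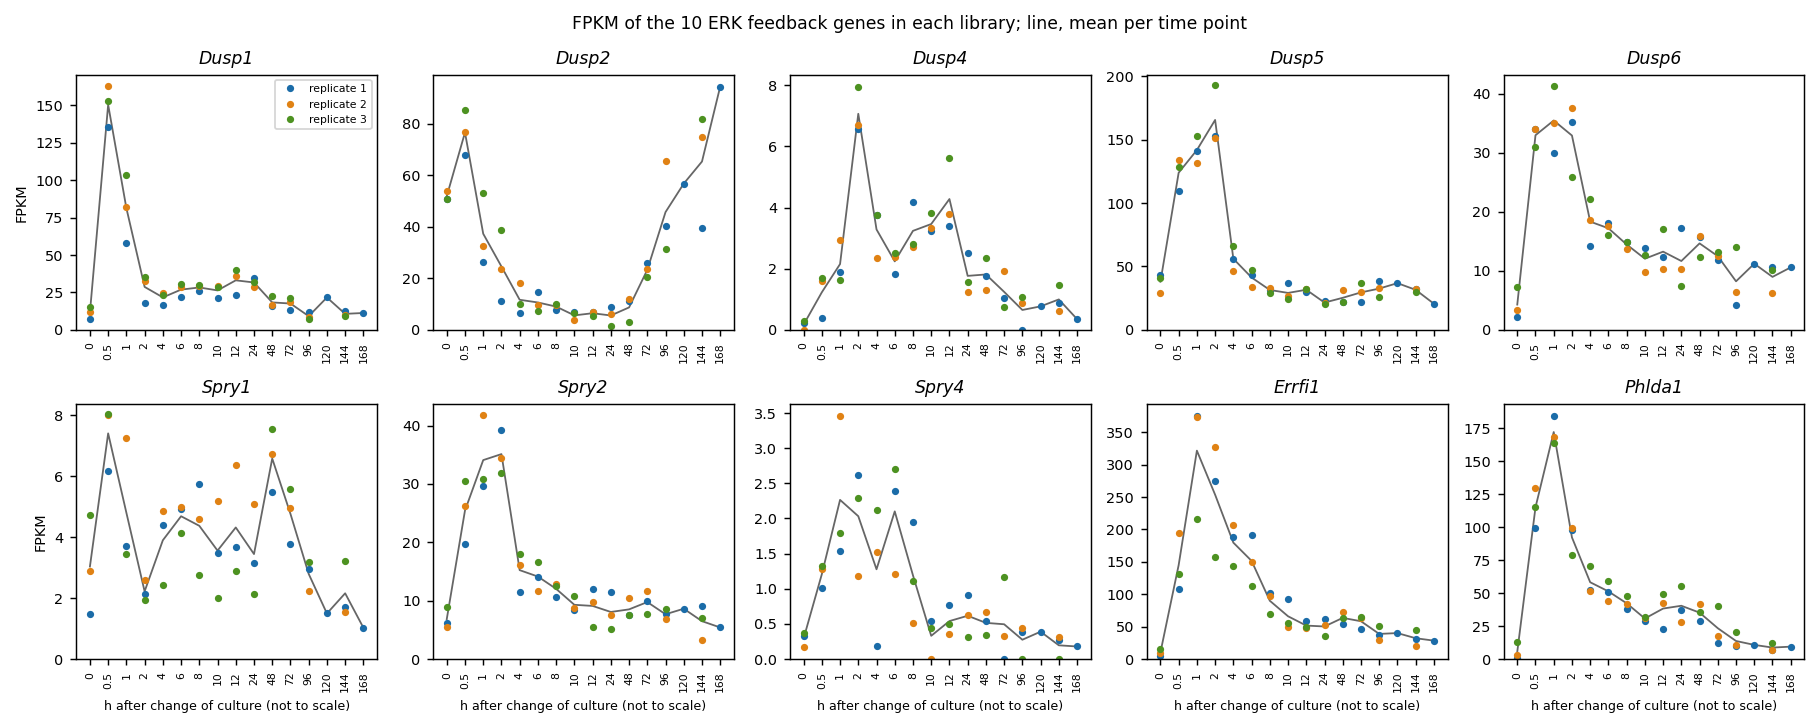
FPKM (vertical axes, linear, each gene with its own scale) of the 10 genes against time from the change of culture (h, horizontal, spaced evenly); points are libraries coloured by replicate number and lines join time-point means, with 1 library at 120 h and 168 h. Means of Dusp1, Dusp2 and Spry1 are highest at 0.5 h, those of Dusp6, Spry4, Errfi1 and Phlda1 at 1 h and those of Dusp4, Dusp5 and Spry2 at 2 h, among time points with 3 libraries.

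The order of peaks thus differed among the members. The mean was highest at 0.5 h for Dusp1 (150.4 ± 13.9 FPKM, SD, n = 3), Dusp2 (76.7 ± 8.70) and Spry1 (7.41 ± 1.07). It was highest at 1 h for Errfi1 (322 ± 91.7), Phlda1 (172 ± 10.9), Dusp6 (35.5 ± 5.67) and Spry4 (2.26 ± 1.04), and at 2 h for Dusp5 (166 ± 23.6), Spry2 (35.1 ± 3.75) and Dusp4 (7.07 ± 0.770). For Dusp5, Dusp6, Spry2, Spry4 and Errfi1 the libraries of 1 h and 2 h overlapped, so these libraries do not separate the 2 time points. The 0.5 h libraries of Spry1 overlapped those of 1, 12 and 48 h, and those of Dusp2 overlapped the 144 h libraries. The single Dusp2 library of 168 h, at 94.6 FPKM, lay above all those of 0.5 h. For Dusp6 the libraries of 0.5 h and 1 h overlapped too, and for Spry4 those of 1 h overlapped those of 4, 6 and 8 h.

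FPKM is scaled to transcript length, so levels can be set side by side between genes. At 0 h the order of mean FPKM was Dusp2, Dusp5, Dusp1, Errfi1, Spry2, Phlda1, Dusp6, Spry1, Spry4 and Dusp4. From Dusp1 to Spry1, and between Spry4 and Dusp4, the libraries of neighbours in that order overlapped. At 1 h the order was Errfi1, Phlda1, Dusp5, Dusp1, Dusp2, Dusp6, Spry2, Spry1, Spry4 and Dusp4, and the first 4 did not overlap their neighbours. At 144 h Dusp2 was again first by its mean, at 65.4 ± 22.6 FPKM, with libraries that overlapped those of Errfi1 (32.2 ± 13.1).

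At 1 h the log2 change from 0 h was 5.22 ± 0.42 for Phlda1, 4.92 ± 0.33 for Errfi1, 2.88 ± 0.30 for Dusp6, 2.73 ± 0.26 for Dusp1 and 2.17 ± 0.27 for Spry2. It was 1.89 ± 0.18 for Dusp5, 1.42 ± 0.27 for Dusp4, 1.30 ± 0.31 for Spry4, 0.54 ± 0.31 for Spry1 and -0.52 ± 0.44 for Dusp2. The added 1 FPKM makes these changes smaller for scarce genes such as Dusp4 and Spry4. With limma at an adjusted p under 0.05, 8 members were called higher and 0 lower at 1 h, where 16.8% of all 13907 genes tested were called higher and 15.3% lower; the members were chosen on such values, so nothing is read from the count. At 0.5 h the counts were 8 and 0 (14.3% and 7.29% of all genes) and at 2 h 8 and 1 (16.5% and 18.5%). Later they were 7 and 1 for 4 h (18.0% and 17.0%), 7 and 1 for 6 h (19.0% and 19.2%), 6 and 1 for 8 h (20.4% and 19.2%), 5 and 1 for 10 h (21.1% and 20.5%) and 5 and 1 for 12 h (21.6% and 20.3%). For 24 h they were 5 and 2 (20.8% and 22.5%), for 48 h 6 and 2 (22.0% and 16.4%), for 72 h 4 and 0 (17.2% and 8.23%), for 96 h 2 and 0 (7.79% and 2.49%) and for 144 h 2 and 0 (5.64% and 3.24%). The 2 members called at 144 h were Dusp6 and Errfi1.

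The feeder markers changed over the same hours, and how the libraries are scaled decided the direction for some members. With each library scaled to the stromal markers, the median change of all genes at 1 h was -2.02, in place of -0.08, and the change from 0 h was 3.50 for Phlda1, 2.91 for Errfi1, 1.02 for Dusp6, 0.85 for Dusp4, 0.69 for Dusp1, 0.45 for Spry4 and 0.18 for Spry2. On that scale Dusp5 was at -0.22, Spry1 at -1.22 and Dusp2 at -2.64, of which Dusp5 and Spry1 changed sign against the unscaled values. Scaled to the blood-cell markers, the median change of all genes was 0.77 and all 10 members were positive, from 0.56 for Dusp2, which also changed sign, to 5.87 for Phlda1. At 0 h, Dusp1, Dusp6, Spry1, Errfi1 and Phlda1 were lowest in replicate 1 and highest in replicate 3, the order of the summed stromal markers (666, 1064 and 2072 FPKM). Dusp2, Dusp4, Dusp5, Spry2 and Spry4 did not follow that order. The share of all genes in that order was not computed, so nothing is read from this split.

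**Figure D2:**
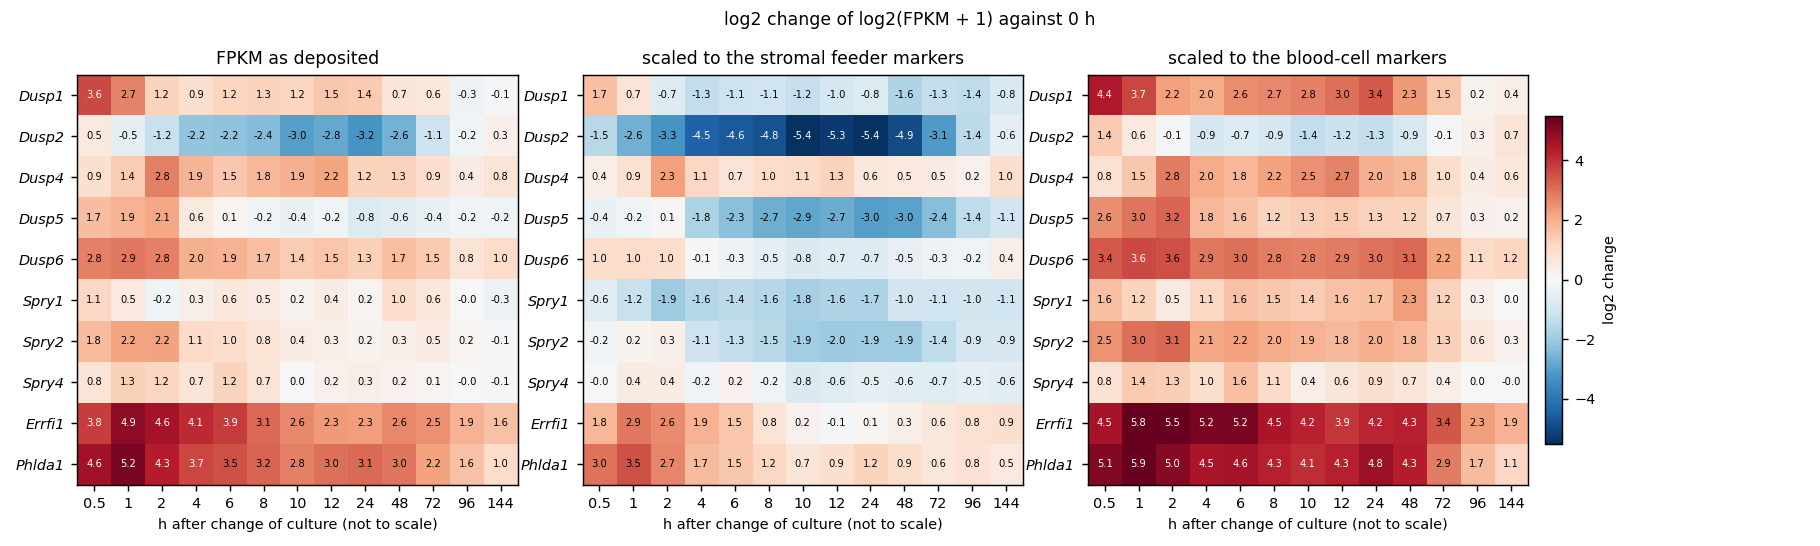
Change of log2(FPKM + 1) from 0 h for each gene (rows) at each later time point with 3 libraries (columns, h, not to scale), as deposited, scaled to the stromal markers and scaled to the blood-cell markers; red is higher and blue lower than 0 h. At 1 h Phlda1 reads 5.2, 3.5 and 5.9 in the 3 panels, while Dusp5 reads 1.9, -0.2 and 3.0.

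Set against the stromal markers of the same library, Errfi1 was at 8.11 ± 0.63 FPKM per 1000 summed stromal FPKM at 0 h (SD, n = 3), 47.5 ± 6.74 at 1 h, 6.66 ± 2.25 at 24 h, and last 13.7 ± 2.32 at 144 h. The 3 libraries of 0 h lay between 7.69 and 8.84 by this ratio, although their FPKM ran from 5.19 to 15.9. Dusp6 was as tight at 0 h, at 3.20 to 3.47, and stood at 5.53 ± 1.97 at 1 h. Other members were not tight. The 0 h FPKM of Dusp5 (43.5, 29.4 and 41.0) and of Dusp2 (51.0, 54.1 and 50.7) did not follow the stromal sums (666, 1064 and 2072). The share of all genes as tight was not computed, so nothing is read from the tightness. Phlda1 spread widely at 0 h, at 3.39 ± 2.50, was at 26.3 ± 4.75 at 1 h and ended, at 144 h, with 3.80 ± 0.61. For Dusp1 the ratio was 9.84 ± 2.07 at 0 h, then 24.4 ± 4.35 at 0.5 h, then 4.17 ± 0.78 at 24 h. For Errfi1, Dusp6, Phlda1 and Dusp1 the 0.5 or 1 h libraries named lay wholly above those of 0 h by the ratio. Not all members did so. With each library scaled to the stromal markers, Dusp5 (-0.22), Spry1 (-1.22) and Dusp2 (-2.64) were lower at 1 h than at 0 h. The share of all genes set apart in this way was not computed, so nothing is read from it.

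Dusp2 followed the blood-cell markers more closely than the stromal markers, and which cells held its transcript was not tested. Over the 14 time-point means its log2 level correlated at r = 0.898 with the mean of the blood-cell markers and at -0.72 with that of the stromal markers. The same correlation with the stromal markers was 0.75 for Phlda1, 0.74 for Dusp4, 0.68 for Errfi1 and 0.05 for Dusp5. With the blood-cell markers that of Dusp5 was 0.25. The points share libraries and the values are descriptions. Per 1000 summed blood-cell FPKM, Dusp2 began at 19.6 ± 2.27 and was at 56.0 ± 5.33 at 0.5 h. At 24, 72 and 144 h it was at 7.59 ± 3.47, 18.3 ± 2.95 and 33.7 ± 14.9 in turn. The 0.5 h libraries lay above those of 0 h, and the 24 h libraries below them, by this ratio too. Scaled to the stromal markers, the log2 change of Dusp2 from 0 h was -1.51 at 0.5 h and -5.43 at 24 h. The direction at 0.5 h thus depended on the marker list, and nothing is read from it.

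**Figure D3:**
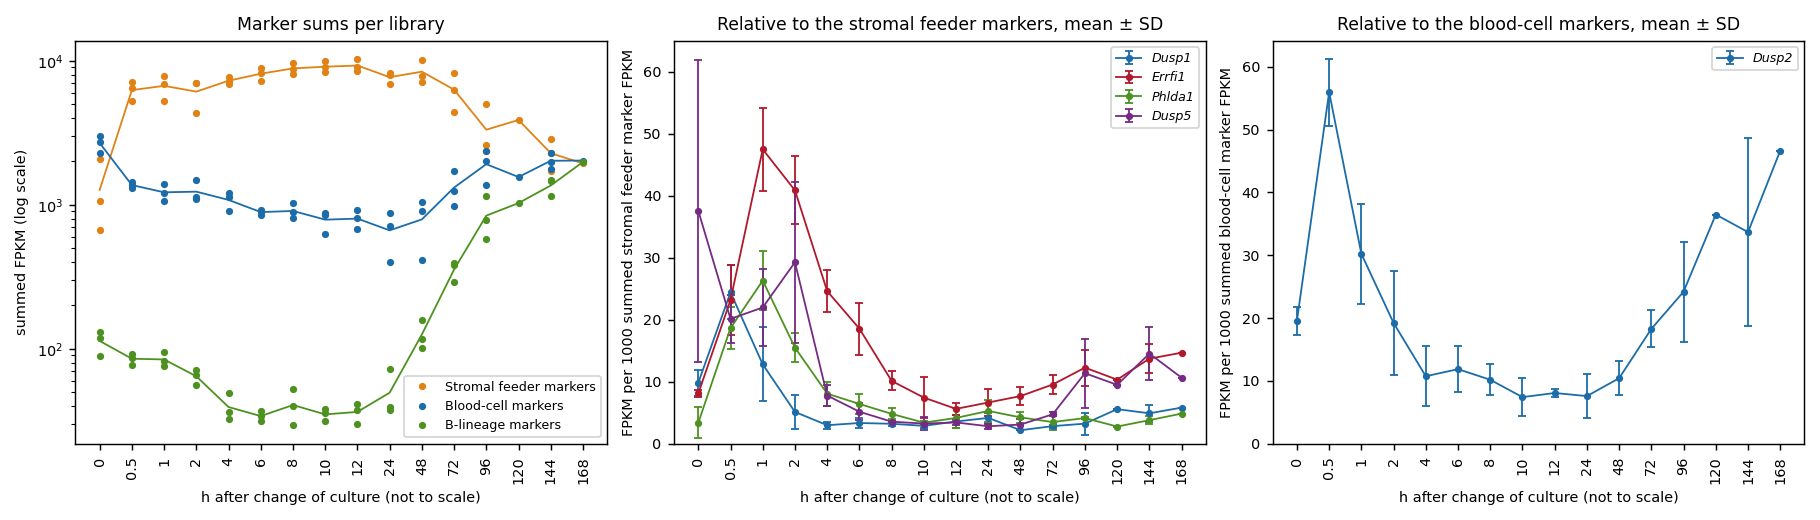
Left, summed FPKM of the stromal, blood-cell and B-lineage markers per library (log axis) against time from the change of culture (h, spaced evenly); centre, FPKM of Dusp1, Errfi1, Phlda1 and Dusp5 per 1000 summed stromal FPKM, and right, of Dusp2 per 1000 summed blood-cell FPKM, as mean ± SD of 3 libraries (1 library at 120 h and 168 h, no bar). Errfi1 goes from 8.11 at 0 h to 47.5 at 1 h, and Dusp2 from 19.6 at 0 h to 7.59 at 24 h and 33.7 at 144 h.

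Steps between later time points compare no 0, 0.5 or 1 h library, although all 42 libraries, those included, set the spread in limma. With only the compared libraries in the fit, 0 members were called in each of the 3 steps from 6 h on. Adjustment was by Benjamini-Hochberg over 13907 genes. Several members peaked at 2 h, and values at 2 h may have been in view when the members were chosen. Comparisons that include 2 h are therefore given as a description, with no test, and nothing is read from them. By the moderated F test over the 11 time points from 2 to 144 h all 10 members were called, as were 45.4% of all genes.

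From 2 to 6 h, as a description, 3 members were called lower and 0 higher, where 2.06% and 1.44% of all genes were. The 3 called, Dusp5, Dusp4 and Spry2, had their highest mean at 2 h. A fall from there follows from the peak, so nothing is read from the calls or from the settings that kept them. The log2 change was -1.98 ± 0.18 (SE) for Dusp5, -1.32 ± 0.27 for Dusp4 and -1.26 ± 0.27 for Spry2. For these 3 no 6 h library overlapped a 2 h library. Within pairs of libraries of the same number, which shared a run of consecutive library codes, the difference of Dusp5 was -1.80, -2.14 and -2.01, that of Dusp4 -1.43, -1.18 and -1.35, and that of Spry2 -1.41, -1.48 and -0.90. Dusp5 was called under each scaling, while Dusp4 and Spry2 were not when scaled to the blood-cell markers, and Dusp4 was also not called with a pseudocount of 0.1. Spry1 went the other way, by 0.82 ± 0.31, with every 6 h library above every 2 h library and pairs within a run at 0.92, 0.73 and 0.81; it was called only with the code run as a block. Dusp6 (-0.88 ± 0.30), Errfi1 (-0.71 ± 0.33) and Phlda1 (-0.84 ± 0.42) were not called. The median change of the members was -0.86, against 0.05 for all genes.

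From 6 to 24 h, 2 members fell and 0 rose, where 1.11% and 0.964% of all genes did. Errfi1 and Dusp5, the 2 that fell, had peaked early, with means of 322 FPKM at 1 h and 166 FPKM at 2 h. The members were chosen with early values in view, and a later fall may partly follow from that choice. The count is therefore not independent evidence. Errfi1 fell from 152 ± 40.1 to 50.3 ± 13.2 FPKM (SD, n = 3), a log2 change of -1.57 ± 0.33 (limma, adjusted p = 0.00998), and every 24 h library lay under every 6 h library. Without 6 h replicate 1 its adjusted p was 0.0675, and without 24 h replicate 3 it was 0.0762. Dusp5 changed by -0.90 ± 0.18 (adjusted p = 0.00743). The 2 pairs of libraries within a code run gave -1.62 and -1.48 for Errfi1 and -0.90 and -0.61 for Dusp5. Dusp5 missed the threshold when scaled to the stromal markers (-0.75, adjusted p = 0.576). Neither passed when scaled to the blood-cell markers (adjusted p = 0.106 and 0.417), whose sum went from 889 to 664 FPKM over this step; the part of that shift in the result was not tested. Dusp1 stood at 26.9 ± 4.55 and 31.7 ± 2.90 FPKM at 6 and 24 h, a change of 0.24 ± 0.26 that did not pass.

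From 24 to 72 h, Dusp2 rose by 2.10 ± 0.44 on the log2 scale (limma, adjusted p = 0.00312), in libraries at 20.4 to 26.0 FPKM against 1.47 to 9.03. Dusp1 fell by 0.83 ± 0.26 (adjusted p = 0.0332), from 31.7 ± 2.90 to 17.6 ± 4.10 FPKM. These were the 2 members called, 1 in each direction, where 7.60% of all genes rose and 2.80% fell. Without 24 h replicate 3, the library with 1.47 FPKM of Dusp2 and the lowest blood-cell sum of its time point (399 FPKM), adjusted p was 0.0721 for Dusp2 and 0.137 for Dusp1. The call of Dusp1 was also lost without 24 h replicate 1 (adjusted p = 0.0712), 72 h replicate 1 (0.164) or 72 h replicate 2 (0.0595). Dusp2 rose with each library scaled to the stromal or to the blood-cell markers, and Dusp1 missed the threshold on the stromal scale (adjusted p = 0.319). Only 1 pair of libraries shared a code run, with differences of 3.12 for Dusp2 and -0.58 for Dusp1. With the code run as a block Spry1 was also called higher (1.13, adjusted p = 0.00656).

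From 72 to 144 h, Dusp2 rose further, by 1.39 ± 0.44 (limma, adjusted p = 0.0381), and no other member passed, where 2.90% of all genes rose and 7.86% fell. Its libraries did not overlap, at 39.6 to 81.8 against 20.4 to 26.0 FPKM. The 3 pairs within a code run gave 0.59, 1.63 and 1.95. Over the same step the summed blood-cell markers went from 1316 to 2020 FPKM and the B-lineage markers from 355 to 1360, and scaled to the blood-cell markers the change was 0.80 (adjusted p = 0.113). The call was lost without 72 h replicate 2 (adjusted p = 0.0862), 72 h replicate 3 (0.158), 144 h replicate 2 (0.152) or 144 h replicate 3 (0.119). Spry1 (-0.89 ± 0.31, adjusted p = 0.0592), Phlda1 (-1.20 ± 0.42, adjusted p = 0.0621), Errfi1 (-0.90 ± 0.33, adjusted p = 0.0772) and Dusp1 (-0.65 ± 0.26, adjusted p = 0.0975) were lower by their values and did not pass. With the code run as a block these 4 were called lower (adjusted p = 0.00783 for Spry1, 0.0201 for Phlda1, 0.0456 for Errfi1 and 0.0189 for Dusp1). Within the 3 runs the difference was -0.81, -1.23 and -0.64 for Spry1, -0.68, -1.27 and -1.65 for Phlda1, -0.56, -1.65 and -0.51 for Errfi1, and -0.045, -0.83 and -1.08 for Dusp1. The median change of the members was -0.53, against -0.02 for all genes.

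**Figure D4:**
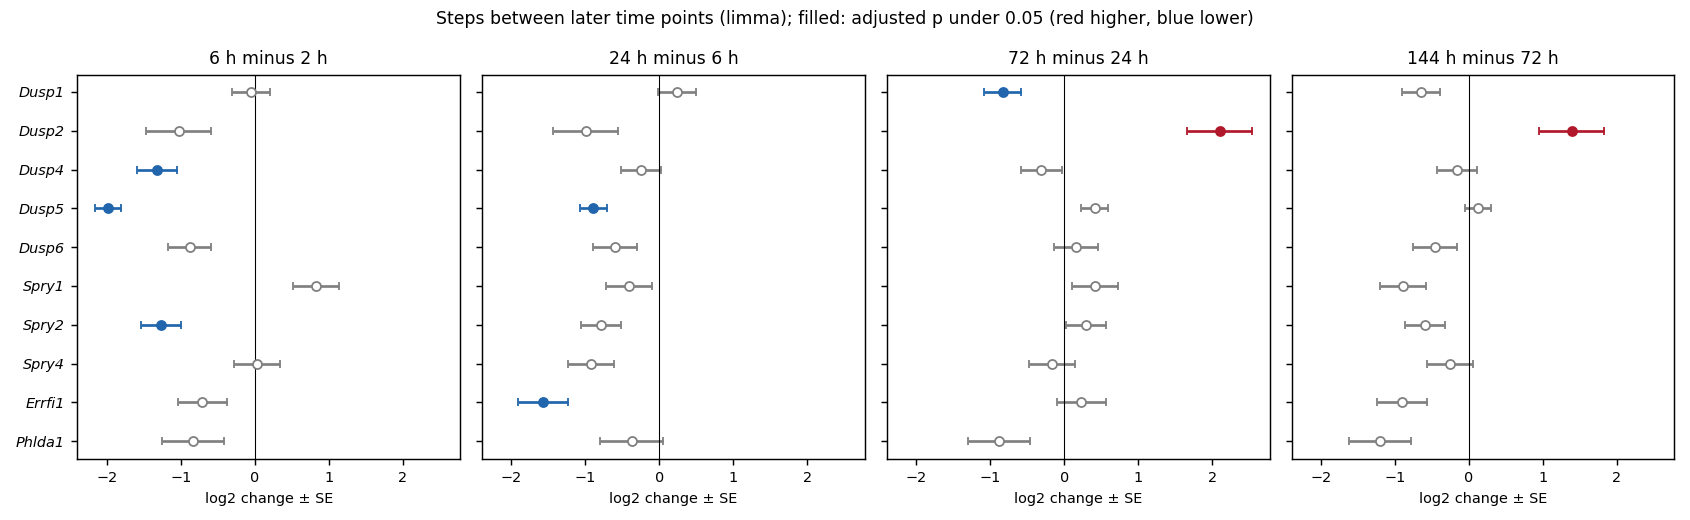
Change of log2(FPKM + 1) with its SE (horizontal axis) for each of the 10 genes in 4 steps between later time points, from limma on 42 libraries; filled points have an adjusted p under 0.05, red higher and blue lower at the later time point, and open points do not; the first panel, which includes 2 h, is a description. Dusp4, Dusp5 and Spry2 are filled in the first panel, Dusp5 and Errfi1 in the second, Dusp1 and Dusp2 in the third and Dusp2 in the fourth.

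The members also differed in which genes they resembled over the 14 time-point means of log2(FPKM + 1), as a description. Dusp6 and Phlda1 were alike at r = 0.959, Dusp6 and Errfi1 at 0.947, Errfi1 and Phlda1 at 0.941 and Dusp5 and Spry2 at 0.933. Dusp2 reached no more than 0.472, with Dusp5. Outside the members, Dusp1 was most like Rhob (0.952) and Klf4 (0.935), Dusp2 like Myl10 (0.962) and H2-Ob (0.946), and Dusp4 like Ehd1 (0.962) and Plec (0.947). Dusp5 was most like Nfkbia (0.973) and Zc3h12a (0.961), which encode inhibitors of NF-kB signalling and of inflammatory transcripts. Dusp6 was most like Fst (0.962) and Plk2 (0.959), and Phlda1 like Plk2 (0.974) and Btg1 (0.973). Errfi1 was most like Tnfaip3 (0.976), another NF-kB inhibitor, and F3 (0.967), tissue factor. Spry2 was most like Trib1 (0.959) and Grasp (0.935), and Spry4 like Srf (0.917), the gene of serum response factor, and Ereg (0.897). Spry1 had the weakest likeness, to Ccdc53 (0.869) and Chid1 (0.842).

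A list of 98 other genes of the pathway was followed through the same steps, of which 97 were in the table and 91 were tested. The list was chosen with earlier results of these data known. Its counts, in this and in the later steps, are therefore no independent support. As a description, the largest changes from 0 to 1 h were those of the transcription factor genes Egr2 (5.23 ± 0.36) and Egr3 (4.84 ± 0.58) and of Ereg, an EGF receptor ligand (4.69 ± 0.29). The step from 2 to 6 h includes 2 h and is likewise a description, with nothing read from its counts. By limma 14 of the 91 were called lower and 1 higher, where 2.06% of all genes were called lower and 1.44% higher. Of the 18 transcription factors and targets 5 were called lower, as were 2 of 4 EGF-family ligands, and of the 12 kinases 0 were called. Fosb, a partner of Jun proteins in AP-1, had the largest fall (-2.95 ± 0.47). Sos1, a Ras exchange factor, was the gene called higher (0.70 ± 0.16).

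From 6 to 24 h, 4 fell and 1 rose, against 1.11% and 0.964% of all genes, with Ereg (-1.43 ± 0.29, limma, adjusted p = 0.00793) and Mapk3, the gene of ERK1 (0.64 ± 0.17, adjusted p = 0.045), at the ends. From 24 to 72 h, 5 fell and 4 rose, against 2.80% and 7.60% of all genes, with the phosphatase gene Dusp14 (-1.27 ± 0.33, adjusted p = 0.0137) and Rasgrp2, a Ras family exchange factor of blood cells (1.38 ± 0.35, adjusted p = 0.011). From 72 to 144 h, 12 fell and 4 rose, against 7.86% and 2.90% of all genes. Those that fell included 5 of 11 receptors and 3 of 7 other growth factors, the largest fall being that of Igf1 (-2.08 ± 0.40, adjusted p = 0.00128), and Rasgrp2 rose again (1.49 ± 0.35, adjusted p = 0.00544). Pdgfra and Pdgfrb, which are among these receptors, are also on the stromal marker list, and the summed stromal markers went from 6295 to 2280 FPKM over this step.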

How the data were processed

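Poly(A) RNA libraries were sequenced on an Illumina HiSeq system, per the labels' protocols. The authors deposited 1 FPKM value per gene and library in a table whose name calls them corrected; what was corrected is not given in the sources used here. Build mm9, Cufflinks 2.1.1 and TopHat2 2.1.0 are listed in the submitters' processing notes. The promoters are of GRCm38.p6, and no positions on chromosomes are printed.

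A gene was tested if 3 or more of the 42 libraries from time points with replicates reached 1 FPKM (13907 genes; all 10 members passed, Spry4 with 17 libraries at 1 FPKM, Dusp4 with 33, Phlda1 with 41 and the others with 42). With 1 mean for each time point, log2(FPKM + 1) was modelled with limma 3.58.1 in R 4.3.3 (eBayes with trend, Benjamini-Hochberg over genes, called at adjusted p under 0.05). Fold changes on this scale understate those of scarce genes. The single libraries were not fitted. Relative depth, estimated from the smallest values, ran from 0.555 to 2.26 times that of 0 h replicate 1. On simulated data for 24 h minus 6 h over 13907 genes, 51 of 100 genes changed by 1 and 92 of 100 changed by 2 on the log2 scale were called, with 4 false calls.

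The members, marker lists and pathway list were chosen with earlier results of these data known. By rule, all members are named, and from the pathway list the largest called rise and fall of each step from 2 h on and the 3 largest rises at 1 h. For each member the 2 genes most like it over time-point means are named, small RNA and unnamed genes left out. The alternatives tried were another pseudocount, no filter, quantile and median-ratio scaling, scaling to either marker list, blocks for replicate number and for the 6 runs of consecutive library codes, a fit on the compared time points only, and leaving out each library.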

Additional observations from a re-analysis of the deposited data

Results flagged for a closer look

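The single libraries of 120 and 168 h entered no comparison, and some of their values for the members lay above all 3 libraries of 0 h. The share of all genes that did so was not computed, and the members were chosen with early values against 0 h in view. Nothing is therefore read from how many did. Dusp5, Spry1, Spry2 and Phlda1 lay above the 0 h libraries at neither time. Dusp2 was at 56.8 FPKM at 120 h and 94.6 at 168 h, against a highest 0 h value of 54.1, and the 168 h value is above each of its other 43 libraries. Errfi1 was at 40.1 and 28.4 FPKM, against 15.9, and Dusp6 at 11.2 and 10.6, against 7.20. Dusp4 was at 0.769 and 0.353 FPKM, against 0.295, both low values. Dusp1 was above the 0 h libraries at 120 h only, with 21.6 FPKM against 15.4, and so was Spry4, with 0.390 against 0.373. With 1 library at each of these times there is no replicate check.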

How the results depend on the processing

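Leaving out 1 library at a time, the members called numbered 3 in every case for 2 to 6 h, 1 to 3 for 6 to 24 h, 0 to 2 for 24 to 72 h and 0 to 4 for 72 to 144 h. The F test called 7 to 10 members under each alternative run. For 2 to 6 h, 5 members were called when scaled to the stromal markers, and 1 when scaled to the blood-cell markers or fitted on the compared time points only. For 6 to 24 h the counts were 1, 0 and 0 in that order, and for 24 to 72 h they were 1, 4 and 0. For 72 to 144 h, 0 were called with a pseudocount of 0.1, with no filter or with the compared time points only, 3 (all higher) scaled to the stromal markers, 5 (all lower) scaled to the blood-cell markers, 4 with the replicate number as a block (Dusp2 higher and, with adjusted p of 0.0398, 0.0201 and 0.0366, Spry1, Phlda1 and Dusp1 lower) and 5 with the code run as a block; without 144 h replicate 3 there were 3, all lower. Fits on the compared time points only called 43, 7, 21 and 4 of all genes in the 4 steps, against 486, 289, 1446 and 1496; with so few libraries each has less to estimate the spread from. The same counts were 783, 437, 2045 and 1978 with the replicate block, 1072, 401, 2613 and 2482 with the run block, 214, 63, 588 and 9140 scaled to the stromal markers and 247, 979, 7160 and 2468 scaled to the blood-cell markers. Quantile and median-ratio scaling moved the higher share of the called genes from 73.1% to 48.4% and 54.4% for 24 to 72 h, quantile normalization moved it from 26.9% to 40.4% for 72 to 144 h, and median-ratio scaling from 41.2% to 26.1% for 2 to 6 h. The marker scalings moved it to 3.74% (stromal) and 74.5% (blood-cell) for 2 to 6 h, 58.7% and 96.0% (46.4% as deposited) for 6 to 24 h, 92.5% and 2.92% for 24 to 72 h, and 98.2% and 2.31% for 72 to 144 h.

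Same-numbered libraries shared at most a weak pattern: the correlations of their deviations from the time-point means ran from -0.065 to 0.171. In most of the pairs checked, though not in all, the same number correlated better than any other number. The fit as reported used no block. With a block for replicate number or for code run, more of all genes were called in each later step. The replicate block left the first 3 steps at 3, 2 and 2 members.

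Some directions turned, and the cause was not tested. Scaled to the stromal markers, the 72 to 144 h changes were positive for Dusp1 (0.48), Dusp4 (0.50), Dusp6 (0.65, limma, adjusted p = 0.0404), Spry1 (0.0026), Spry2 (0.47), Spry4 (0.10) and Errfi1 (0.27), and that of Spry4 for 2 to 6 h was -0.21. On that scale the changes from 0 h were -0.22 at 1 h for Dusp5, -1.14 and -0.77 at 6 and 24 h for Dusp1, -0.26 and -0.71 for Dusp6, and -1.31 at 6 h for Spry2. Scaled to the blood-cell markers, the 2 to 6 h change was 0.33 for Dusp1, and those of 6 to 24 h were 0.15 for Dusp4, 0.058 for Spry1 and 0.20 for Phlda1. On the same scale the 24 to 72 h changes were -0.60 for Dusp5, -0.81 for Dusp6, -0.42 for Spry1, -0.66 for Spry2 and -0.80 for Errfi1, that of Dusp5 for 72 to 144 h was -0.46, and its change from 0 h at 24 h was 1.28. Quantile normalization gave -0.0024 for Spry4 (2 to 6 h) and -0.0016 for Dusp6 (24 to 72 h), and median-ratio scaling -0.019 for Spry4 (2 to 6 h). Leaving out 1 library, Dusp1 (2 to 6 h) ran from -0.35 to 0.13, Spry4 from -0.19 to 0.26 (2 to 6 h), -0.47 to 0.082 (24 to 72 h) and -0.51 to 0.046 (72 to 144 h), Dusp6 (24 to 72 h) from -0.090 to 0.46, Dusp4 (72 to 144 h) from -0.33 to 0.045 and Dusp5 (72 to 144 h) from -0.064 to 0.28; none of these was called in the fit as reported.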
